A study of Mus musculus with 12 samples.

Results

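The genes of the NRF2, glutathione and antioxidant system were followed in a mouse alpha cell line and a mouse beta cell line treated with the kinase inhibitor GW8510. They were chosen as a list of 40 genes by known function, with earlier results of these data known. Of these genes, 36 were read on the arrays by a probe set assigned to 1 gene symbol, out of 12255 genes tested. Prdx1 is covered here only by probe sets that carry several gene symbols, and Abcc4, Prdx6 and G6pdx were not analysed here. The cells were aTC1, a line from a glucagon-producing mouse islet tumour, and bTC3, a line from an insulin-producing one. Both come from tumours driven by SV40 large T antigen, and each is 1 line, so a difference between them is one between these lines and not between cell types. Each line was kept for 5 days with GW8510 at 3.3 µM, dissolved so that DMSO made up 0.1% of the medium, or with the same share of DMSO alone. The study's paper reports toxicities at 3.3 µM and used a lower dose in its later experiments. The part of toxicity in the changes below was not tested. GW8510 is described as a putative inhibitor of the cell cycle kinase CDK2. For treated replicates 2 and 3 the source name carries other compound numbers, and the treatment is taken from titles and characteristics, which name GW8510. Each of the 4 groups held 3 biological replicates, 1 Affymetrix array per replicate, giving 12 arrays of total cellular RNA. The labels describe a growth medium for aTC1 only, so medium and line cannot be told apart where the lines are compared.

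NRF2, encoded by Nfe2l2, is a transcription factor that KEAP1 holds back by marking it for degradation. When reactive chemicals or oxidants modify KEAP1, NRF2 accumulates and, with a small MAF partner, binds antioxidant response elements near genes for glutathione synthesis, NADPH supply, quinone and epoxide detoxification, heme breakdown and iron storage. Beta cells are known for low levels of several hydrogen peroxide removing enzymes, catalase and glutathione peroxidase among them. NRF2 is controlled largely through its protein, which an RNA array does not read.

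Promoter sequences were taken from RefSeq on build GRCm38.p6, as the stretch from 250 bases before to 50 bases after each annotated start. They were found for 35 of the 40 genes, in 47 windows. The core of the antioxidant response element was searched as TGACNNNGC on both strands. It lies in 14 of the 47 windows (29.8%) and in 4071 of all 32851 RefSeq windows of that length (12.4%). Of the 32 measured genes with a window, 10 held a match, and 7 of these 10 rose in alpha cells, as did 15 of the 22 without a match. In beta cells 2 of the 10 and 10 of the 22 rose. The 7 matches of genes that rose in alpha cells are printed to show the letters behind these counts, with the match in capitals and 10 bases to either side. Each is on the strand of its gene, so that a match on the opposite strand reads GCNNNGTCA.
Nfe2l2, chr2:75704885-75704913, minus strand: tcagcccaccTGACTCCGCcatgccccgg
Gclm, chr3:122245413-122245441, plus strand: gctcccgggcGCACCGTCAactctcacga
Txnrd1, chr10:82859104-82859132, plus strand: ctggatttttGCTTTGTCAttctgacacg
Srxn1, chr2:152105542-152105570, plus strand: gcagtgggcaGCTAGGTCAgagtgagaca
Pgd, chr4:149166061-149166089, minus strand: atttcagagcTGACATTGCactgatcgga
Me1, chr9:86695902-86695930, minus strand: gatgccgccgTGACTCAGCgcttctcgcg
Mgst1, chr6:138140461-138140489, plus strand: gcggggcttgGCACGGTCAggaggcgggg
The match of Me1, the malic enzyme that makes NADPH, is the longer form TGACTCAGC, which 0.454% of all windows hold and which overlaps a second motif, the AP-1 site TGANTCA. The matches of Srxn1 and Pgd lie after the annotated start, within the transcript, that of Me1 spans the start, and those of Nfe2l2, Gclm, Txnrd1 and Mgst1 lie before it. A match is a string of letters and was not tested for binding, and the windows leave out the distal enhancers at which several of these genes are known to be controlled.

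In alpha cells the antioxidant genes moved mostly upward. GW8510 raised 25 of the 36 (69.4%) at adjusted p under 0.05 and lowered 5, and 6 did not pass. Over all genes tested, 20.2% were called higher and 21.2% lower, and the median log2 change was 0.47 for the 36 genes beside 0.03 for all genes. Every adjusted p comes from the limma fit across all 12255 genes after Benjamini-Hochberg adjustment, and a log2 change is always GW8510 over DMSO within 1 line. The arrays of the GW8510 and DMSO groups did not overlap for 26 of the 36 genes in the higher direction and 5 in the lower, where the shares over all genes were 26% and 25.5%. RNA is read relative to the rest of each bulk sample, so fewer cells of a kind and less RNA per cell cannot be told apart. In beta cells the same genes moved less. There 14 of 36 rose (38.9%, beside 19.7% of all genes), 3 fell (8.33%, beside 14.3%) and 19 did not pass, with a median log2 change of 0.14 beside 0.07 for all genes. Rises of at least 2-fold were called for 6 genes in alpha cells, Ephx1, Mgst1, Hmox1, Gstm2, Gss and Gpx3, and for 4 in beta cells, Ephx1, Mgst1, Hmox1 and Gpx1, beside 2.61% and 1.2% of all genes. The arrays did not overlap in the higher direction for 18 genes and in the lower for 5, where the shares over all genes were 28.4% and 17.6%. A set of 13 genes (36.1%, beside 9.07% of all genes) rose in both lines, namely Nqo1, Hmox1, Ephx1, Gss, Gsr, Txn1, Pgd, Gstt1, Gsto1, Mgst1, Gpx1, Cat and Sod2. Gclc, Srxn1 and Gstm1 rose in alpha cells and fell in beta cells, a pattern held by 1.18% of all genes.

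**Figure D1:**
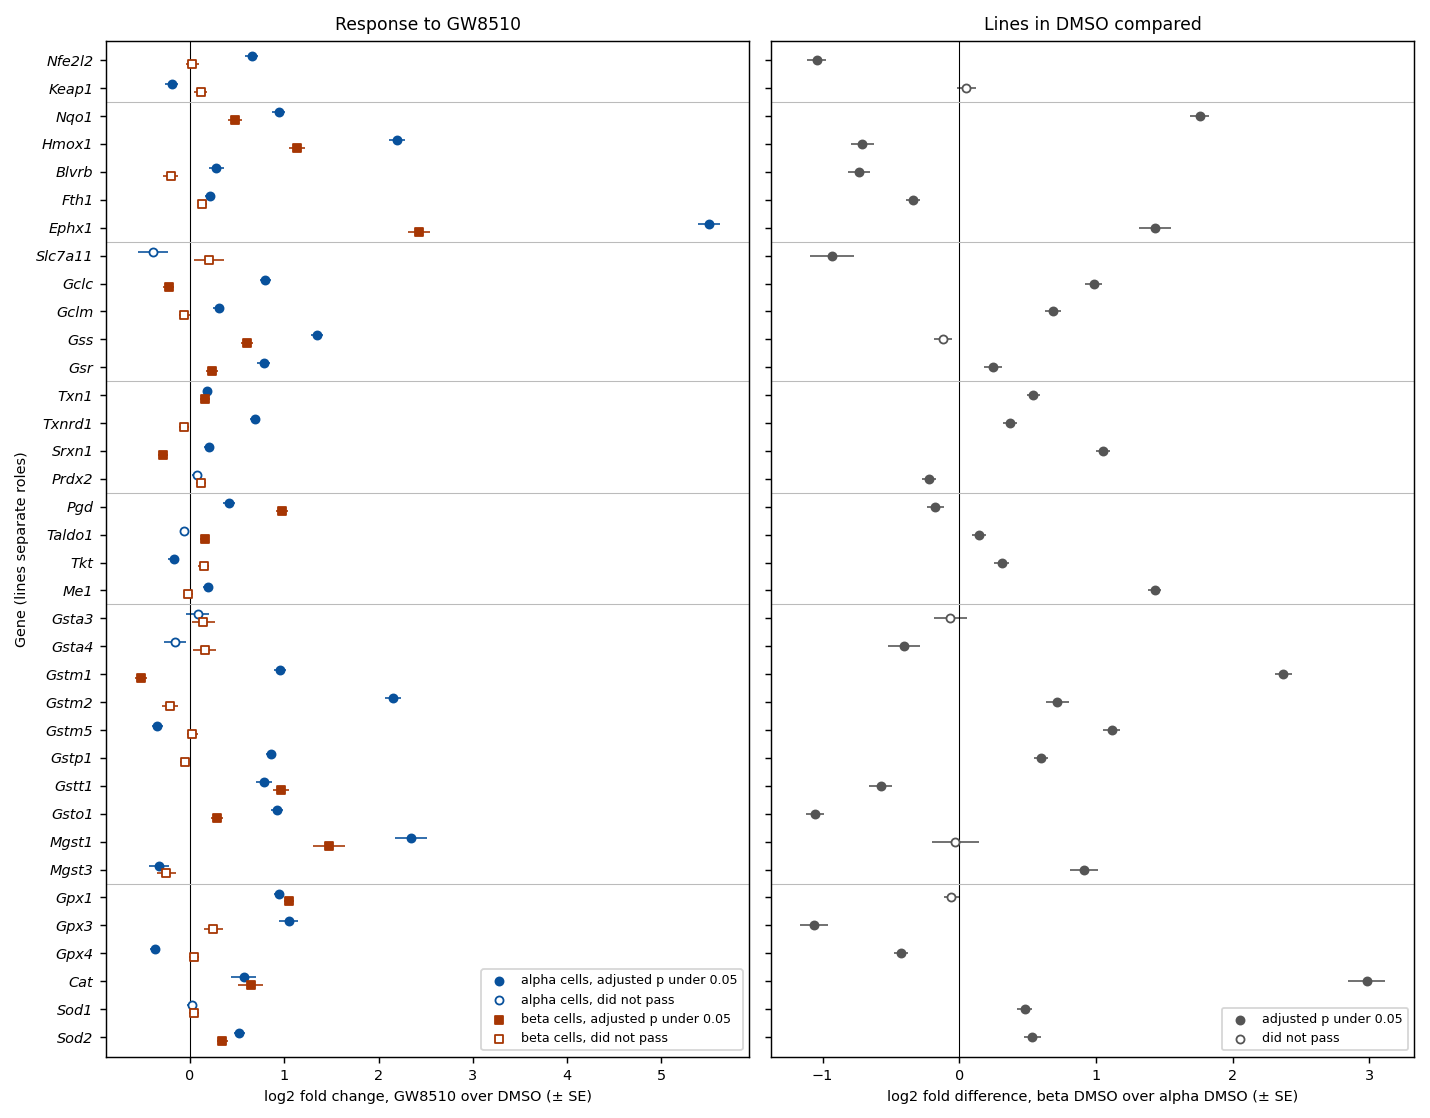
Log2 fold change with its standard error from the limma fit for each of the 36 genes, in rows grouped by role, as GW8510 over DMSO in each line (left, circles for alpha cells, squares for beta cells) and as beta DMSO over alpha DMSO (right), with filled symbols at adjusted p under 0.05. Ephx1 lies farthest to the right, at 5.51 in alpha and 2.42 in beta cells, and Fth1 in alpha cells is a lower limit because its arrays are at the upper bound of the scale.

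The arrays themselves were alike in most respects. Median intensities lay between 173.7 and 182.0 on 11 arrays and at 199.9 on beta GW8510 replicate 3, the correlation between arrays of a group was at least 0.994, and values were bounded at 20 and 20000. The glucagon probe set was at the upper bound on all alpha arrays, and the Ins2 probe set was at that bound on all beta arrays and at 96.8 ± 1.82 (SD, n = 3) in alpha cells with DMSO. The beta line also carried glucagon RNA, at 6420.2 ± 367, and somatostatin RNA, at 17819 ± 646, so its markers are those of more than 1 islet hormone. Of 14 marker genes of acinar, duct, endothelial, leukocyte and fibroblast cells, 13 were measured and 2, the duct keratin Krt7 and the acinar elastase Cela1, rose in both lines. The other 11 passed in neither line. The summed level of the 13 went from between 2041 and 2137 with DMSO to between 3684 and 3833 with GW8510 in alpha cells. In beta cells the sum went from between 961 and 1064 to between 1259 and 1298. Krt7 alone went from 848 ± 33.5 to 2252 ± 40.1 in alpha cells and from 192 ± 9.64 to 340 ± 39.1 in beta cells. The leukocyte marker Ptprc was at the lower bound of 20 on 11 of 12 arrays. Islet markers moved with GW8510 too. In alpha cells Pdx1 (5.28-fold), Iapp (2.73-fold), Ttr (at least 2.38-fold), Hhex (2.03-fold) and Ins2 (1.56-fold) rose and Irx2 fell to 0.732 of its DMSO level. The Ttr value is a lower limit, since 1 of its alpha GW8510 arrays was at the upper bound. In beta cells Slc2a2 (34.7-fold) and Gcg (1.87-fold) rose, and Pdx1 and Nkx6-1 fell to 0.870 and 0.830. The part of these shifts in the antioxidant gene changes was not tested.

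The regulators came first. Nfe2l2 rose 1.57-fold in alpha cells, from 1249.6 ± 44.3 to 1968 ± 165 (SD, n = 3; adjusted p = 1e-05). In beta cells it was 607 ± 34.7 with DMSO and 617 ± 23.0 with GW8510, a log2 change of 0.02 with a 95% interval of -0.13 to 0.18, and the difference between the lines was -0.63 (adjusted p = 0.000498). Keap1, the repressor of NRF2, fell slightly in alpha cells, by 0.20 on the log2 scale (adjusted p = 0.0395), and was 623 ± 23.1 and 676 ± 58.3 in beta cells without passing. The Keap1 call in alpha cells did not hold without alpha DMSO replicate 2 or 3, alpha GW8510 replicate 1 or 2, or beta DMSO replicate 1, where its adjusted p lay between 0.0546 and 0.15.

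Among the genes for quinone, heme, iron and epoxide handling, all 5 that were measured rose in alpha cells (beside 20.2% of all genes) and 3 rose in beta cells (beside 19.7%). Ephx1, the microsomal epoxide hydrolase that opens reactive epoxides to diols, had the largest change of the 36. Its intensities in alpha cells were 135, 97.9 and 117 with DMSO and 5242, 5018 and 5516 with GW8510. The beta arrays read 328, 305 and 304 with DMSO and 1706, 1444 and 1911 with GW8510. Both lines were higher with GW8510 on every array, and the rise stood at rank 2 of 12255 genes by size in alpha cells and at rank 10 in beta cells. The beta rise was 5.37-fold (adjusted p = 7.27e-08). Against the alpha rise of log2 5.51 it differed by -3.08 (SE 0.17, adjusted p = 1e-07), although Ephx1 started 2.70-fold higher in beta cells. Its upstream sequence, given here because it belongs to the gene with the largest change, holds no TGACNNNGC.
Ephx1, chr1:181017570-181017819, minus strand: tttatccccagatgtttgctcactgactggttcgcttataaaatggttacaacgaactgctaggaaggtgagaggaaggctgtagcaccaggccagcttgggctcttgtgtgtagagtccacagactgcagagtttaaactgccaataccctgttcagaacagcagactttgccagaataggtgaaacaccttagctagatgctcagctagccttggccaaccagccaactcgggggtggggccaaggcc

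Hmox1, heme oxygenase 1, which splits heme into biliverdin, iron and carbon monoxide, followed at a smaller size. Its intensities in alpha cells were 573, 600.4 and 506 with DMSO and 2679.5, 2337 and 2662 with GW8510. The beta line had 327, 358 and 339.5 with DMSO and 689.6, 800.1 and 767 with GW8510. The groups did not overlap in either line, and the log2 changes of 2.19 (4.58-fold, SE 0.08) and 1.14 (2.20-fold, SE 0.08) differed by -1.06 (adjusted p = 3.96e-05). Nqo1, the quinone reductase that is the usual reference gene of NRF2 activity, rose 1.39-fold in beta cells, from 296 ± 9.88 to 413 ± 38.6 (adjusted p = 0.000291), and its response was smaller there by 0.46 (adjusted p = 0.00514). Blvrb, a biliverdin and flavin reductase, rose 1.21-fold in alpha cells and was 356 ± 4.04 and 311 ± 40.8 in beta cells, where it did not pass (adjusted p = 0.0658) but fell without beta GW8510 replicate 3 (log2 change -0.29, adjusted p = 0.00487). Fth1, the ferritin heavy chain, reached the upper bound on all 3 alpha GW8510 arrays, so that its rise there is at least 1.16-fold (adjusted p = 0.00439). In beta cells Fth1 was 13699 ± 551 and 14963 ± 342 and did not pass (adjusted p = 0.0667), though it did without beta DMSO replicate 3 (adjusted p = 0.0436). In the limma fit of every probe set, another Fth1 probe set rose 1.44-fold in alpha cells (adjusted p = 1.39e-05), to a mean of 19646. It changed by log2 0.11 in beta cells without passing, and its responses differed by -0.42 (adjusted p = 0.00235).

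**Figure D2:**
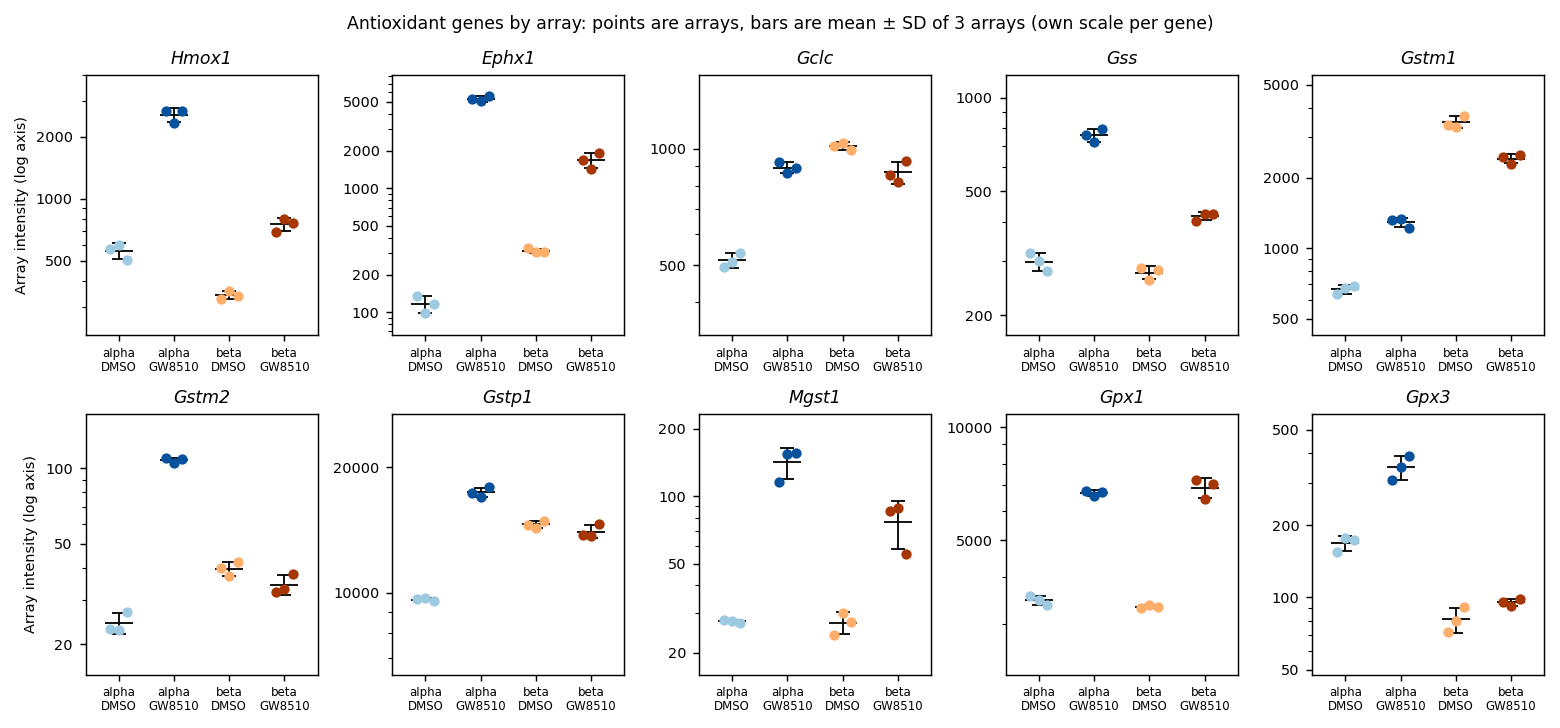
Array intensity of 10 genes, with a log axis of its own for each, where points are arrays and bars are the mean and SD of 3 arrays for alpha cells (blue) and beta cells (orange) with DMSO (light) or GW8510 (dark). Ephx1, Hmox1, Gss, Mgst1 and Gpx1 were higher with GW8510 on every array in both lines, while Gclc and Gstm1 were higher in alpha and lower in beta cells.

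The genes that supply glutathione split between the lines. Gclc encodes the catalytic subunit of glutamate-cysteine ligase, the rate-limiting step of glutathione synthesis. Its intensities in alpha cells were 493, 510.5 and 539 with DMSO and 926, 866 and 889 with GW8510, a 1.74-fold rise (adjusted p = 5.48e-07). In beta cells they were 1016, 1038 and 993 with DMSO and 856, 819.6 and 930.2 with GW8510, a fall to 0.854 of the DMSO level (adjusted p = 0.0118). With GW8510 the ranges of the lines overlapped, whereas with DMSO the beta line had been 1.98-fold higher, and the responses differed by -1.03 (SE 0.09, adjusted p = 3.51e-06). Gclm, the modifier subunit of the same enzyme, rose 1.24-fold in alpha cells (adjusted p = 0.00104). It was 4938 ± 140.1 and 4738 ± 169 in beta cells, where the 95% interval of its log2 change ran from -0.19 to 0.07.

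Gss, glutathione synthetase, which joins the last amino acid, rose in both lines. Its intensities were 316, 299.7 and 277 with DMSO and 761, 721 and 791 with GW8510 in alpha cells. The beta arrays read 283, 259 and 280.3 with DMSO and 402, 424 and 423 with GW8510. The lines overlapped with DMSO and lay apart with GW8510, with rises of 2.55-fold and 1.52-fold that differed by -0.75 on the log2 scale (adjusted p = 8.03e-05). Gsr, the NADPH-dependent reductase that recycles oxidised glutathione, rose 1.72-fold in alpha cells (adjusted p = 1.25e-06) and 1.17-fold in beta cells (adjusted p = 0.0172). The beta call of Gsr was lost without beta DMSO replicate 2, beta DMSO replicate 3 or beta GW8510 replicate 1, at adjusted p of 0.0534 to 0.0717. Slc7a11, the cystine importer and a known NRF2 target, did not pass in either line, with 80.5 ± 19.5 and 60.5 ± 6.19 in alpha cells and 41.5 ± 4 and 47.9 ± 7.05 in beta cells. Without alpha DMSO replicate 3 it passed as a fall in alpha cells (log2 change -0.54, adjusted p = 0.0205).

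In the thioredoxin system the reductase showed the clearest change. Txnrd1, which recharges thioredoxin with NADPH, rose 1.61-fold in alpha cells, from 2292 ± 80.1 to 3694 ± 37.5 (adjusted p = 5.83e-07). In beta cells it was 2965 ± 111 and 2838 ± 102, and the difference between the lines was -0.75 (adjusted p = 1.45e-05). Txn1, thioredoxin itself, rose 1.14-fold in alpha and 1.12-fold in beta cells, and the beta call (adjusted p = 0.0259) was lost without beta DMSO replicate 1, beta DMSO replicate 2 or beta GW8510 replicate 1, at adjusted p of 0.051 to 0.101. Srxn1, sulfiredoxin, which repairs over-oxidised peroxiredoxins, rose 1.15-fold in alpha cells (adjusted p = 0.0105) and fell to 0.818 of the DMSO level in beta cells (adjusted p = 0.00133). Its alpha rise was not seen when its probe sets were averaged (log2 change 0.06, adjusted p = 0.468). Prdx2, a peroxiredoxin, changed by log2 0.07 and 0.12 and passed in neither line.

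Of the NADPH and pentose phosphate enzymes, Pgd had the largest change in both lines. It encodes 6-phosphogluconate dehydrogenase, the second NADPH-producing step of the pentose phosphate pathway. Pgd rose 1.33-fold in alpha cells (2575 ± 185 to 3426 ± 132) and 1.97-fold in beta cells (2278 ± 26.3 to 4483 ± 150.1), so its response was larger in beta cells by log2 0.56 (adjusted p = 0.000408). Tkt, transketolase of the non-oxidative branch, fell by 0.18 in alpha cells (adjusted p = 0.025) and was 7158 ± 169.5 and 7911 ± 286 in beta cells without passing (adjusted p = 0.0693). The alpha call of Tkt was lost without alpha DMSO replicate 2, alpha DMSO replicate 3 or alpha GW8510 replicate 3, at adjusted p of 0.0567 to 0.0993. Taldo1, transaldolase of the same branch, passed in beta cells at log2 0.15 (adjusted p = 0.0372) and not in alpha cells. That call was lost on leaving out any 1 of alpha DMSO replicates 1, 2 or 3 or of the 6 beta arrays, at adjusted p of 0.05 to 0.106. Me1 rose 1.14-fold in alpha cells (adjusted p = 0.00684), but its mean over all probe sets changed by 0.02 (adjusted p = 0.805), and it did not pass in beta cells.

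The glutathione transferases, which attach glutathione to electrophiles, differed from one gene to the next. Of the 10 measured, 6 rose and 2 fell in alpha cells, beside 20.2% and 21.2% of all genes, and 3 rose and 1 fell in beta cells, beside 19.7% and 14.3%. The family as a whole did not share this tilt in alpha cells. Of 11 further measured genes of this group, from the wider list described below, 1 rose and 5 fell there (9.09% and 45.5%). In beta cells 2 of these rose and 2 fell. Gstm1 of the mu class had intensities of 637, 679 and 692 with DMSO and 1317, 1335 and 1226 with GW8510 in alpha cells. In beta cells it had 3379.5, 3310.1 and 3694 with DMSO and 2447, 2298 and 2508 with GW8510. The groups were apart in both lines in opposite directions, 1.93-fold higher in alpha cells (adjusted p = 1.98e-07) and 0.699 of the DMSO level in beta cells (adjusted p = 6.66e-05), with a difference of -1.47 (SE 0.09, adjusted p = 3.09e-07). The other 3 Gstm1 probe sets changed by log2 0.33, 0.62 and 0.97 in alpha cells and by -0.40, -0.56 and -0.53 in beta cells.

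Gstm2, its neighbour, was dim with DMSO. Its intensities in alpha cells were 23.1, 22.8 and 27.0 with DMSO, near the lower bound of 20, and 109, 105 and 108 with GW8510. The beta line had 40.2, 37.1 and 42.3 with DMSO and 32.3, 33.2 and 37.9 with GW8510. The alpha arrays were far apart (4.45-fold, adjusted p = 2.18e-09). The beta arrays overlapped by 1 value and did not pass (adjusted p = 0.0697), although Gstm2 passed as a fall without beta GW8510 replicate 3 (adjusted p = 0.0211) or without alpha DMSO replicate 3 (adjusted p = 0.0454). The responses differed by -2.36 (SE 0.12, adjusted p = 5.16e-08). Gstm5 fell to 0.786 of the DMSO level in alpha cells (adjusted p = 0.000477) and changed by 0.02 in beta cells.

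The mu class genes lie side by side on chromosome 3, and their 7 measured genes did not move as a block. In their order along the chromosome the log2 changes in alpha cells were -0.35 for Gstm5, -0.60 for Gstm7, 0.17 for Gstm6, 0.38 for Gstm3, 2.15 for Gstm2, 0.95 for Gstm1 and -0.29 for Gstm4, and those of Gstm6 (adjusted p = 0.189) and Gstm3 (adjusted p = 0.112) did not pass. In beta cells Gstm7 (-1.19, adjusted p = 9.7e-07) and Gstm1 (-0.52) fell, and the other 5 did not pass. Gstm2 and Gstm1, which are adjacent, were the mu class genes that rose in alpha cells. These genes are close copies of each other, so a probe set of one may also read another. Their upstream sequences are given to set the 2 that rose beside Gstm5, which fell and which alone of the 3 holds a TGACNNNGC match, in capitals.
Gstm2, chr3:107986421-107986670, minus strand: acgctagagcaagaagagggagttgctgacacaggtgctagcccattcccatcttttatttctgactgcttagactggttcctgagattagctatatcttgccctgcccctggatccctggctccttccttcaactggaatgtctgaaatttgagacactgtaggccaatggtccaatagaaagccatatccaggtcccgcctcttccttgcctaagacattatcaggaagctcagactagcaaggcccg
Gstm1, chr3:108017819-108018068, minus strand: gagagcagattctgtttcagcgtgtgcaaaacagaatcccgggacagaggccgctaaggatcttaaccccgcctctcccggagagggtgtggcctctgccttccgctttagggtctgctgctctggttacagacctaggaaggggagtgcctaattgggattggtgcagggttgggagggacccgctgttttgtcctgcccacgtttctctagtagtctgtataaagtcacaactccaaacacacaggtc
Gstm5, chr3:107895604-107895853, plus strand: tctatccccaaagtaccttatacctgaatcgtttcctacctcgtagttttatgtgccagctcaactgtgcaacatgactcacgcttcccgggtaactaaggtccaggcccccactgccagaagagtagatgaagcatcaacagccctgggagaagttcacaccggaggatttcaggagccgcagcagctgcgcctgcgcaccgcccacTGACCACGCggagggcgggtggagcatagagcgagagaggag
For Gstm1, which has 2 annotated starts, the downstream start was used.

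**Figure D3:**
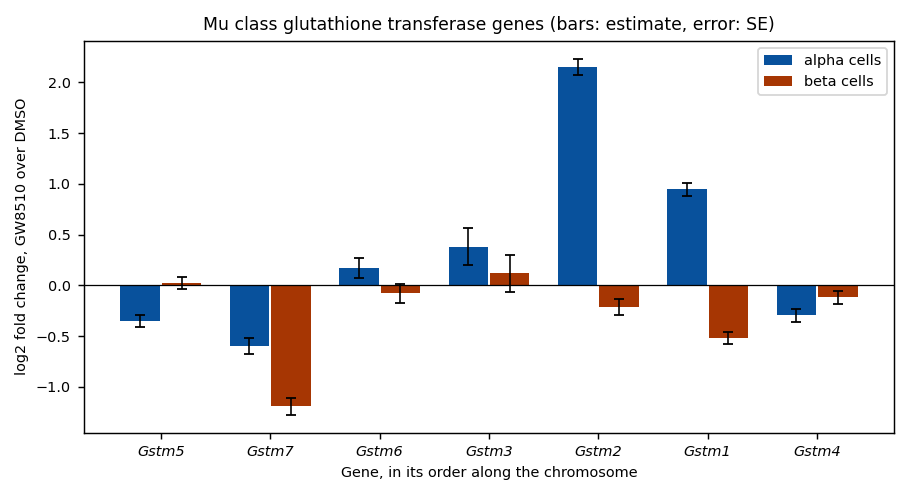
Bars give the log2 fold change of GW8510 over DMSO for the 7 mu class glutathione transferase genes in their order along chromosome 3, in alpha cells (blue) and beta cells (dark orange), with the standard error of the limma fit. Gstm2 and Gstm1 stand above 0 in alpha cells only, at 2.15 and 0.95, and Gstm7 is the lowest in both lines.

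Outside the mu class, Gstp1, the pi class enzyme, had intensities of 9646, 9709 and 9558 with DMSO and 17358, 17021 and 17919.7 with GW8510 in alpha cells. In beta cells they were 14584, 14310.0 and 14898 with DMSO and 13746, 13708 and 14604 with GW8510. Its alpha groups were far apart, at 1.81-fold (adjusted p = 4.86e-08), and its beta groups overlapped (log2 change -0.06, 95% interval -0.17 to 0.05), with a difference of -0.91 (adjusted p = 1.77e-06). The alpha values with GW8510 come close to the upper bound of 20000. Gsto1 of the omega class rose 1.90-fold in alpha and 1.22-fold in beta cells, but its mean over all probe sets did not pass in beta cells (log2 change 0.20, adjusted p = 0.0822). Gstt1 of the theta class rose in both, 1.72-fold and 1.95-fold, with a difference of 0.18 and a 95% interval of -0.08 to 0.44. The alpha class genes Gsta3 and Gsta4 were dim, at group means between 36.9 and 53.9, and passed in neither line.

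Mgst1, a microsomal transferase of membranes, had intensities of 28.0, 27.7 and 27.1 with DMSO and 115, 154 and 155 with GW8510 in alpha cells. The beta arrays read 24.0, 30.1 and 27.5 with DMSO and 86.0, 88.8 and 55.4 with GW8510. Both lines were higher on every array, 5.07-fold in alpha (adjusted p = 3.75e-07) and 2.77-fold in beta cells (adjusted p = 3.92e-05), but another Mgst1 probe set changed by 0.11 and 0.06 and passed in neither, and the mean of both rose by 1.23 and 0.76. The related Mgst3 fell in alpha cells, by 0.33 on the log2 scale (adjusted p = 0.0205), and was 646 ± 31.6 and 542 ± 34.3 in beta cells (adjusted p = 0.0769), where it passed without alpha GW8510 replicate 1 (adjusted p = 0.0179). The alpha call of Mgst3 was lost without alpha DMSO replicate 3, alpha GW8510 replicate 2 or alpha GW8510 replicate 3 (adjusted p of 0.079 to 0.0892) and when its probe sets were averaged (adjusted p = 0.414).

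Among the enzymes that remove peroxide and superoxide, Gpx1 rose in both lines. It is the main cytosolic glutathione peroxidase, and its intensities in alpha cells were 3559.7, 3469 and 3366 with DMSO and 6749, 6541 and 6738 with GW8510. The beta line had 3294, 3365 and 3328 with DMSO and 7238, 6434 and 7058 with GW8510. The beta arrays lay just below the alpha arrays with DMSO and the lines overlapped with GW8510, at rises of 1.93-fold and 2.07-fold (adjusted p = 5.59e-08 and 1.22e-07), and their difference of 0.11 had a 95% interval of -0.06 to 0.27.

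Gpx3, the secreted glutathione peroxidase, had intensities of 155, 176 and 173 with DMSO and 307, 350.5 and 388 with GW8510 in alpha cells. In beta cells they were 71.5, 80.1 and 91.1 with DMSO and 96.0, 91.7 and 98.6 with GW8510. The alpha rise was 2.07-fold (adjusted p = 4.23e-06), and the beta arrays, though apart, did not pass (adjusted p = 0.084), though Gpx3 passed without beta DMSO replicate 3 (adjusted p = 0.0278) and with array weights (adjusted p = 0.0282). Gpx4, which reduces lipid peroxides in membranes, fell to 0.771 of the DMSO level in alpha cells, from 8040.2 ± 259 to 6200.1 ± 150.4 (adjusted p = 8.77e-05), and was 5983 ± 236 and 6141 ± 164 in beta cells. Cat, catalase, rose 1.48-fold in alpha (adjusted p = 0.00494) and 1.56-fold in beta cells (adjusted p = 0.00313), and Sod2, the mitochondrial superoxide dismutase, rose 1.44-fold and 1.27-fold. Sod1, the cytosolic superoxide dismutase, changed by 0.02 and 0.04 on its brightest probe set, while a dimmer probe set fell by 0.49 in alpha cells (adjusted p = 0.00332).

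The response itself was compared between the lines with an interaction contrast. In 18 of the 36 genes (50%, beside 12% of all genes) the log2 change was lower in beta than in alpha cells, in 6 (16.7%, beside 16.4%) it was higher, and 12 did not pass. The median difference was -0.19, beside 0.04 over all genes. Of the 5 genes of glutathione supply, 4 responded less in beta cells, as did 4 of the 5 genes for quinone, heme, iron and epoxide handling. The remaining gene of the latter, Fth1, did not pass on its brightest probe set, which the upper bound limits. Its other probe set differed by -0.42 (adjusted p = 0.00235). The largest differences were those of Ephx1 (-3.08), Gstm2 (-2.36), Gstm1 (-1.47), Hmox1 (-1.06) and Gclc (-1.03). Those in the other direction were smaller, led by Pgd (0.56) and by Gpx4 (0.41) and Gstm5 (0.37), and the latter pair fell in alpha cells and did not pass in beta cells.

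**Figure D4:**
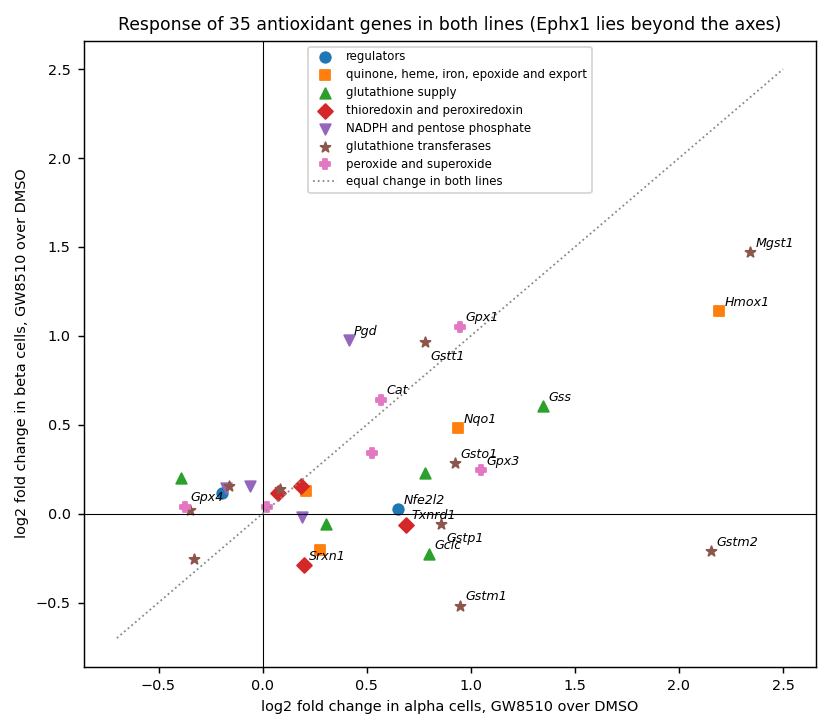
Log2 fold change of GW8510 over DMSO in alpha cells (horizontal) against that in beta cells (vertical) for 35 of the 36 genes, marked by role, with a dotted line of equal change. Ephx1, at 5.51 and 2.42, lies beyond the axes, and most named genes lie below the dotted line, with Pgd, Gpx4, Gstt1, Gpx1 and Cat above it.

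The lines already differed with DMSO alone. With DMSO, 19 of the 36 genes were higher in the beta line (52.8%, beside 26.8% of all genes) and 12 were lower (33.3%, beside 28.9%), with a median log2 difference of 0.20 beside -0.05 for all genes. The DMSO arrays of the lines did not overlap for 19 genes higher in the beta line and 13 lower, where the shares over all genes were 30.2% and 35.5%. Cat was 7.89-fold higher in the beta line (60.4 ± 13.0 against 469.7 ± 28.1, adjusted p = 1.84e-09; 15.7-fold on its other probe set), Gstm1 5.17-fold and Nqo1 3.38-fold. Me1 (2.70-fold), Gstm5 (2.16-fold), Srxn1 (2.07-fold) and Gclc (1.98-fold) were also higher there. Nfe2l2 and Gpx3 stood at 0.485 and 0.479 of the alpha level, Gsto1 at 0.482, Slc7a11 at 0.524 and Hmox1 at 0.611. The genes called in opposite directions, Gclc, Srxn1 and Gstm1, were all among the 19 of 36 higher in the beta line with DMSO. The same DMSO arrays enter the responses and this comparison, so the overlap is not independent evidence. With GW8510 the beta and alpha means were 869 and 894 for Gclc and 2418 and 1293 for Gstm1. The baseline calls of Pgd (0.886 of the alpha level, adjusted p = 0.027) and Taldo1 (1.10-fold, adjusted p = 0.0306) did not hold throughout. That of Pgd was lost without alpha DMSO replicate 2 or 3 or beta DMSO replicate 1 or 3 (adjusted p of 0.0502 to 0.125), that of Taldo1 without alpha DMSO replicate 1 or 2 or beta DMSO replicate 1 or 3 (0.0544 to 0.111), and that of Gsta4 (0.756 of the alpha level, adjusted p = 0.0118) without beta DMSO replicate 2 (0.0584).

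For 20 of the 36 genes the array held 28 further probe sets. In alpha cells 25 of these belonged to genes that had been called, and 22 changed in the same direction, 15 of them at adjusted p under 0.05, while 3 changed in the opposite direction without passing. In beta cells 16 of 17 had the same direction and 13 passed. The further probe set of Cat rose by 1.26 in alpha cells where the brighter one rose by 0.57, and that of Mgst1 changed by 0.11 where the brighter one rose by 2.34, so the size of both responses depends on the probe set. The further Cat probe set was near the lower bound in alpha cells with DMSO, at a mean of 22.7.

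A wider list of 110 genes of the same pathways was drawn up by function, also with earlier results of these data known. It includes glutaredoxins, sestrins, selenoproteins and further transferases, and 94 of its genes were measured. In alpha cells 35 rose and 22 fell (37.2% and 23.4%, beside 20.2% and 21.2% of all genes), and in beta cells 42 rose and 15 fell (44.7% and 15.96%, beside 19.7% and 14.3%). The largest change was that of Selenop, the secreted selenium carrier, which rose by 3.04 in beta cells (8.24-fold) beside a larger rise in alpha cells. Chac1, which breaks glutathione down inside cells, fell by 2.79 in alpha and by 0.54 in beta cells. Msra, which repairs oxidised methionine, fell by 2.24 and 0.44. Idh1, a cytosolic source of NADPH, rose by 1.72 and 0.64, Ptgr1, an NADPH-dependent reductase, by 1.47 and 1.14, and Slc40a1, the iron exporter ferroportin, by 1.43 and 0.30.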

How the data were processed

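RNA of 12 cultures was read on Affymetrix arrays of 22690 probe sets. The deposited values are linear array intensities between 20 and 20000, and the submitters' processing notes name RMA, with no version and no scan batch in the sources used here. The log2 was taken without a pseudocount. Each gene was represented by its brightest probe set among the 20380 with 1 gene symbol, which left 12255 genes, and 691 probe sets with several symbols were not used. A single limma fit (version 3.58.1, R 4.3.3, 8 residual degrees of freedom, median residual SD 0.107 on the log2 scale) covered all 4 groups, with contrasts for GW8510 over DMSO in each line, their difference, and the lines with DMSO, and Benjamini-Hochberg adjustment over all genes. The number of arrays, 3 per group, limits the precision, with a median standard error of 0.08 for a response and 0.12 for the difference. The labels call the replicates biological without saying how they were separated, so p-values measure the spread between these arrays. No test of the fit on simulated data is reported here.

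All 40 listed genes are accounted for, and values by array are given for those called at an absolute log2 change of at least 1 in a line or an absolute difference of at least 0.8 between lines. Of the wider pathway list the 6 called genes with the largest changes are named. The genes, lists and tests were chosen with earlier results of these data known. Promoters and gene order come from RefSeq tables on GRCm38.p6 and were handled with Python 3.11.15. Alternatives varied the normalization, the probe set, leaving out the dimmest 25%, which arrays entered the fit, the spread, a pseudocount of 16, a replicate block and each array in turn.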

Additional observations from a re-analysis of the deposited data

Results flagged for a closer look

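The response to GW8510 differed between the lines, by the interaction contrast at adjusted p under 0.05, in 24 of the 36 antioxidant genes, 18 lower in beta cells (beside 12% of all genes) and 6 higher (beside 16.4%). Each value here is the log2 change in beta cells minus that in alpha cells. Among the glutathione transferases it was -2.36 for Gstm2, -1.47 for Gstm1, -0.91 for Gstp1, -0.87 for Mgst1, -0.64 for Gsto1 and 0.37 for Gstm5. In quinone, heme and epoxide handling it was -3.08 for Ephx1, -1.06 for Hmox1, -0.48 for Blvrb and -0.46 for Nqo1. In glutathione supply it was -1.03 for Gclc, -0.75 for Gss, -0.55 for Gsr and -0.36 for Gclm. Of the regulators, Nfe2l2 stood at -0.63 and Keap1 at 0.31. In the thioredoxin system it was -0.75 for Txnrd1 and -0.49 for Srxn1, and among the peroxidases -0.80 for Gpx3 and 0.41 for Gpx4. In NADPH supply it was 0.56 for Pgd, 0.32 for Tkt, 0.21 for Taldo1 and -0.21 for Me1.

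The smallest of these did not hold in every setting. For Keap1 (adjusted p = 0.0332) the call was lost without alpha DMSO replicate 2 or 3, alpha GW8510 replicate 1 or 2, or beta DMSO replicate 1 or 2, at adjusted p of 0.057 to 0.082. For Me1 (adjusted p = 0.0381) it was lost without any of alpha DMSO replicates 1, 2 and 3, alpha GW8510 replicate 2, beta DMSO replicates 1 and 3 and beta GW8510 replicates 1 and 2, at 0.0562 to 0.0947, and when its probe sets were averaged, at 0.227. For Taldo1 (adjusted p = 0.0463) it was lost on leaving out any 1 array other than alpha GW8510 replicate 2, at 0.0574 to 0.0977, and with a further quantile normalization, centred arrays or array weights, at 0.0688 to 0.0853. The cause of the differences was not tested.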

How the results depend on the processing

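Over the 36 genes, the 4 comparisons and up to 21 alternative settings, 2842 of 2968 values kept their direction and their side of the threshold (31 of these changed sign with no call in either setting), 79 lost the call, 44 gained it and 3 reversed. All 3 reversals came from averaging the probe sets of a gene. They were Sod1 in alpha cells (-0.23), Sod1 in the beta line over the alpha line with DMSO (-0.36), and the difference in the Cat response (-0.32). The members called lower in beta cells numbered 5 after a further quantile normalization, 5 with arrays centred on their median, 6 with array weights, and 3 to 5 when each array was left out in turn, 5 being the number without beta GW8510 replicate 3. Those called lower in alpha cells numbered 3 to 5 on leaving out an array, 3 being the number without alpha DMSO replicate 2, alpha DMSO replicate 3, alpha GW8510 replicate 2 or alpha GW8510 replicate 3. Counts of rises on leaving out an array were 25 throughout in alpha and 11 to 14 in beta cells. Over the other settings they were 23 to 25 in alpha cells, 23 with averaged probe sets or without the dimmest genes, and 12 to 17 in beta cells. Over all genes, 2280 rather than 1475 were called with a lower log2 change in beta than in alpha cells when array weights were used. Centring the arrays moved the median of all genes in beta over alpha cells with DMSO from -0.05 to -0.13. Same-numbered arrays shared no visible deviation from their group means (correlation -0.03 to 0.02 in alpha and -0.13 to 0.08 in beta cells). This cannot show whether the replicates were paired, and the study's paper calls the alpha vehicle controls matched. With a replicate block 25 genes rose in alpha and 13 in beta cells. The block ended the calls of Tkt in alpha cells (adjusted p = 0.0796), of Txn1 (0.0759) and Taldo1 (0.0964) in beta cells, of Taldo1 (0.119) and Me1 (0.118) in the difference, and of Taldo1 (0.05) between the lines with DMSO. It added Slc7a11 in alpha cells (0.0403) and in the difference (0.0459), and Gpx3 in beta cells (0.0448). The upper bound of the scale limits Fth1, and the lower one limits Gstm2, Mgst1 and the further probe set of Cat. The cause of these changes was not tested.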
